A study of Mus musculus with 4 samples.

Results

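CD226 is an activating receptor of lymphocytes, and the 9 genes described here encode CD226, the receptors and ligands it shares a network with, and both chains of the integrin LFA-1. They are Cd226, its sister receptors Tigit and Cd96, the ligands Pvr, Nectin2 and Nectin3, the nectin-like molecule Cadm1, and Itgal and Itgb2. They were taken by symbol from the 17187 genes of the authors' table, where all 9 had a value, by a rule that uses no measured value. The series compared 2 groups of 2 RNA-seq libraries made from group 2 innate lymphoid cells (ILC2s) sorted from the lungs of BALB/c mice. The culture lasted 18 hours, with isotype control in one group and a CD226 antibody in the other. The protocol gives 5 µg/mL, and does not make clear whether the isotype had the same dose. Its design text speaks of wild-type mice that were treated, and the table calls the controls PBS. The sample labels were followed. The labels name no stimulus in the culture. They also do not tell if replicates are different mice or cultures, so the p-values speak only of variation among these 4 libraries, possibly technical variation.

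CD226 and TIGIT are immunoglobulin superfamily receptors that compete for the same ligands, chiefly PVR (CD155) and nectin-2 (CD112). CD226 delivers activating signals, TIGIT carries inhibitory motifs in its tail, and CD96 is a further receptor for PVR. LFA-1, the pair of the alpha L chain (Itgal) and the beta 2 chain (Itgb2), binds ICAM molecules on other cells and is known to associate with CD226 in activated lymphocytes. The series' title places CD226 blockade beside ILC2 effector function and airway hyperreactivity, so these 9 genes show whether transcripts of the antibody's target and of its partners differed after culture with the antibody.

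The libraries held an estimated 12433720 to 17847337 reads, with between 16602 and 16847 genes above 0. The identity of the cells was checked on 12 ILC2 markers, all of which had values. Gata3, which ILC2s need to develop, stood between 13810 and 17310 normalised read counts, and Il1rl1, the receptor for IL-33, between 8220 and 9037. Il5 and Il13, the type 2 cytokines of these cells, had lower values in the anti-CD226 libraries without overlap, Il5 with 95010 and 97655 against 85431 and 67864 and Il13 with 2773 and 3419 against 2725 and 921. Neither passed the test (limma, adjusted p = 0.98). Of the 12, 7 were higher and 5 lower in the anti-CD226 libraries, and Thy1 was low, at 76.05 to 194. Groups did not overlap for 6 of the 12, with 4 higher (Gata3, Rora, Il7r and Icos) and 2 lower (Il5 and Il13). Over all 13010 genes tested, 26.8% did not overlap. T cell markers were mixed. The T cell receptor alpha constant gene Trac stood at 2.06 to 4.64 and Cd3d at 1.10 to 5.53, while Trbc1 stood at 602 to 948, Cd3g at 215 to 325 and Cd3e at 51.5 to 79.3. Of the 12 macrophage markers, 8 had values, and their summed level was 98.4 and 51.4 in isotype replicates 1 and 2 against 280.0 and 1642 in anti-CD226 replicates 1 and 2. Chil3, a macrophage chitinase-like protein, and Mmp12, the macrophage elastase, made up most of the sum in anti-CD226 replicate 2, with 784 and 678. Cd68 had 35.4 and 38.6 in the isotype pair against 55.6 and 88.2. Lyz2 had 3.32 and 0.773 against 8.24 and 51.8, and Mpeg1 0 and 0 against 4.12 and 16.5, each without overlap. The 4 macrophage markers tested (Cd68, Lyz2, Chil3 and Mmp12) were all higher, 3 of them without overlap. Lyz2 and Chil3 had isotype means of 2.04 and 9.95, under the filter of 10. They entered the test only through the anti-CD226 libraries, so their direction was partly set by the filter. None of the 4 passed the test, and neither did any other of the 13010 genes. Adgre1 and Csf1r did not exceed 7.73 in any library, and their groups overlapped. Of the natural killer cell markers only Prf1 and Gzmb had values, and the other 6 were not analysed here. Markers of further cell types were mixed. Xcr1 of dendritic cells stood at 489 to 583.5, Cd79b of B cells at 166 to 210, Epcam of epithelium at 184 to 215 and Pecam1 of endothelium at 620 to 726. The groups of each overlapped. Lower values were those of Zbtb46 (7.7 to 22.0), H2-Aa (9.9 to 23.2) and Krt18 (11.05 to 27.8). Other markers of these lists reached 0 in some libraries. They were Batf3 of dendritic cells (0 to 6.61), and Cdh1 (0 to 25.35), Krt8 (0 to 13.1) and Sftpc (0 to 22.4) of epithelium. Krt8 and Sftpc were above 0 in isotype replicate 2 only. Col1a1 of fibroblasts stood at 0 to 9.95. For B cells and endothelium, Cd79b and Pecam1 were the only listed markers with values. The mast cell and basophil markers were led by Kit, at 768 to 1350, whose groups overlapped. Cpa3 had 84.0 and 100.4 in the isotype pair and 37.1 and 63.9 in the anti-CD226 pair. Mcpt8 had 34.3 and 34.8 against 15.4 and 18.7. Gata2 went the other way, with 8.84 and 10.04 against 26.8 and 20.9. These had no overlap and did not pass the test. Of the 5 tested in this list, 4 did not overlap, 1 higher and 3 lower, against 26.8% over all genes. The other lower one was Fcer1a, with 16.6 and 20.9 against 14.4 and 7.72. Gata2 had an isotype mean of 9.44, under the filter of 10, and entered only through the anti-CD226 libraries. Ms4a2, with 0 and 6.18 against 0 and 6.61, was not tested.

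Per kilobase of exon, the 9 genes spanned more than 3 orders of magnitude, and the LFA-1 chains led in every library. Dividing each normalised read count by the length of the gene's merged exons allows levels of different genes to be compared. Itgb2 reached 2097 and 1995 normalised reads per kilobase in the isotype pair, and 1942 and 2111 in the anti-CD226 pair. Itgal was next, with 982 and 739 against 844 and 1142. Cd226 followed, with 192.5 and 213 against 205 and 201.5, above at least 76.9% of the genes with a length in each library. These first 3 places did not overlap one another.

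Below Cd226 the order was less clear. Cd96 stood between 34.9 and 63.2 reads per kilobase and Tigit between 33.6 and 44.8, so that these neighbours overlapped, although Cd96 was above Tigit within each of the 4 libraries. Pvr, the main CD226 ligand, stood between 13.9 and 28.3, and with the longest annotated transcript as its length between 29.3 and 59.6, a range that overlaps those of Cd96 and Tigit. Nectin2 (1.58 to 7.37) and Nectin3 (1.13 to 1.82) overlapped, and Nectin2 was below Nectin3 in isotype replicate 1 only. Cadm1 was last in every library, with 0.211 to 0.888.

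**Figure D1:**
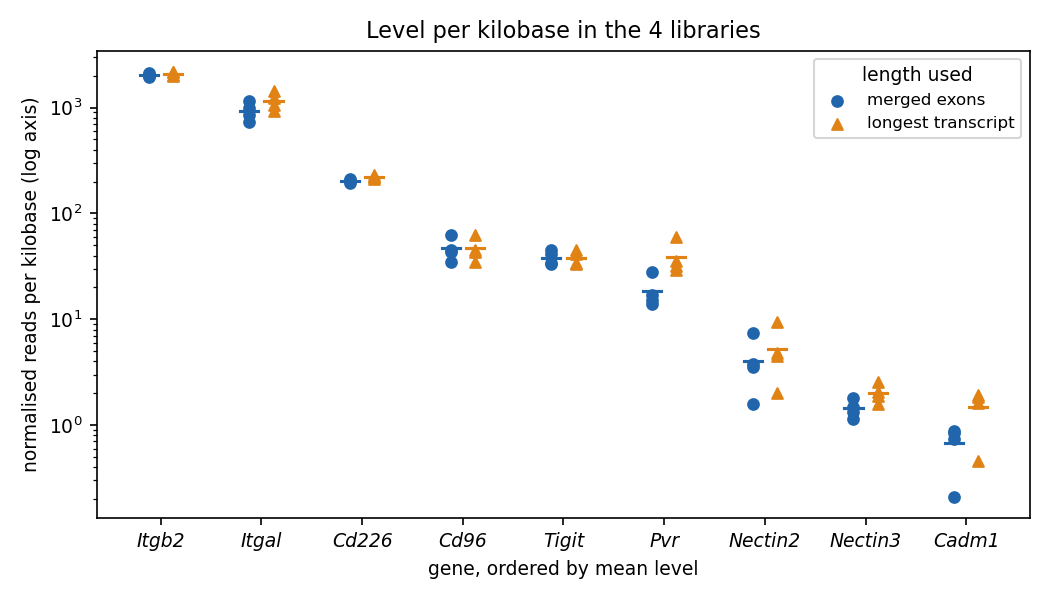
Normalised reads per kilobase (log axis) of the 9 genes, each with 4 points for the 4 libraries and a bar for their mean, by merged exon length (blue circles) and by longest transcript (orange triangles). Itgb2, Itgal and Cd226 keep the first 3 places by either length, and Pvr moves up from 6th to 5th place with the longest transcript.

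Transcripts of the 3 receptors did not pass the test for a difference, and that of Cd226 was the closest to equal. Cd226 had 942 and 1042 normalised read counts in isotype replicates 1 and 2, and 1001 and 985 in anti-CD226 replicates 1 and 2. Both anti-CD226 libraries lay between the isotype libraries. The log2 difference, on the log2(value + 1) scale used throughout, was 0.0040 with a 95% interval from -0.38 to 0.39 (limma, adjusted p = 0.997). That interval corresponds to 0.767 to 1.31 times the isotype level. It is not the limit of detection, because the test also adjusts over all 13010 genes, and larger differences can fail it too. The values rest on 852 to 1348 reads per library. The sign turned under quantile normalization (-0.02) and scaling to the same upper quartile (-0.02).

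Cd96 had 76.2 and 95.03 in the isotype libraries and 138 and 98.1 in the anti-CD226 libraries. The groups did not overlap. The log2 difference was 0.45 (SE 0.27), and its 95% interval ran from -0.19 to 1.08 (limma, adjusted p = 0.98). It was 0.29 without isotype replicate 1, 0.20 without anti-CD226 replicate 1 and 0.69 without anti-CD226 replicate 2. Tigit, the inhibitory receptor, had 30.9 and 37.9 against 41.2 and 30.9. Its groups overlapped, and the log2 difference was 0.06 with an interval from -0.77 to 0.88. Tigit rests on 28 to 49 reads per library.

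Within each library the balance of the 3 receptors can be read without any scaling between libraries. Compared across libraries, the shares can still carry the trend with gene length given below. Cd226 has 4.891 kilobases of exon, Cd96 2.184 and Tigit 0.919, and the part of length in the shares was not tested. Of the summed level per kilobase of Cd226, Cd96 and Tigit, Cd226 made up 73.7% and 71.5% in the isotype libraries and 65.5% and 72.0% in the anti-CD226 libraries. The groups overlapped in this share. The share of Cd96 was 13.4% and 14.6% against 20.2% and 16.04% and did not overlap. With 2 libraries against 2, a two-sided exact permutation test cannot give a p below 0.333, so no test of these shares was made. The share of Tigit was 12.9% and 13.84% against 14.3% and 12%. Cd226 stood 3.24 to 5.51 times above Cd96 and 4.57 to 5.999 times above Tigit.

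The start regions of Tigit and Cd96 are shown because these paralogous receptors had like levels and lie on the same chromosome as Nectin3. RefSeq start regions (GRCm38.p6) were found for 4 of the 9 genes, Tigit, Cd96, Nectin2 and Nectin3, and the 250 bases before each start are used. Each was searched on both strands for 5 motifs, and capitals mark the matches. GATA factors were searched as AGATAA. The RUNX motif was spelled TGTGGT. For ETS factors the letters were CCGGAA. Those for SP factors were GGGCGG, and those of the E-box were CACGTG. No matches overlapped in these regions. The Tigit region is chr16:43664185-43664434 and the Cd96 region chr16:46120249-46120498, both on the minus strand and written 5′ to 3′ along the gene.
Tigit: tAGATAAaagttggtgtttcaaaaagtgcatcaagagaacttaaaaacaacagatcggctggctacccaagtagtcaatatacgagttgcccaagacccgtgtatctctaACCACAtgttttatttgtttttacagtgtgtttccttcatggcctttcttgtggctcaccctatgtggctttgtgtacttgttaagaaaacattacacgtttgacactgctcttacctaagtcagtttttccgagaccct
Cd96: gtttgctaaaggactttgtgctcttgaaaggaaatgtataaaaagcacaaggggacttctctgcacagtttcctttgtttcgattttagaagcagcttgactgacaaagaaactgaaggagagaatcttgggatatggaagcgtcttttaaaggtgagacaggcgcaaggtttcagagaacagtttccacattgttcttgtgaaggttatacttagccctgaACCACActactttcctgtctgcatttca

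The Tigit region held 1 match to AGATAA, letters found in 9.99% of 32851 regions of this length, and 1 to TGTGGT on the other strand, found in 14.0%. The Cd96 region held 1 match to TGTGGT, on the other strand, at offsets -28 to -23 from the start. Neither held the SP, ETS or E-box letters, the last of which occur in 6.02% of all regions. Their GC contents were 40.0% and 41.2%, against a median of 52.4% over all regions. A match is a description of letters and not evidence of binding.

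The ligands Pvr and Nectin2 had higher values in the anti-CD226 libraries, without passing the test, while Nectin3 and Cadm1 overlapped. Pvr had 92.8 and 85.0 in isotype replicates 1 and 2 and 103 and 173 in anti-CD226 replicates 1 and 2. The groups did not overlap, and anti-CD226 replicate 2 stood far above the other 3 libraries. The log2 difference was 0.58 (SE 0.29), with a 95% interval from -0.10 to 1.26 (limma, adjusted p = 0.98, unadjusted p = 0.084). Its gap between the anti-CD226 replicates, 0.74 on the log2 scale, was wider than that of 84.2% of the 1194 genes of like level. Anti-CD226 replicate 2 was also the library with the highest summed level of macrophage markers, 1642, and their part in the Pvr value was not tested. In a bulk library, fewer cells of a type and less RNA per cell cannot be told apart.

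A call for Pvr was made only with a single library left out. Without anti-CD226 replicate 1 its log2 difference was 0.95 (limma, adjusted p = 0.016), in a fit where 1633 of 13010 genes (12.6%) were called and the lone anti-CD226 library was assumed to vary like the isotype group. No other of the 8 genes tested was called there. Over the alternatives the adjusted p of Pvr ran from 0.0164 to 1, and its log2 difference from 0.21 to 0.95.

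Nectin2 had 5.53 and 12.4 against 25.7 and 13.2, so that the groups stood apart by less than 1 count. These values are 5, 16, 25 and 12 reads in the same order. The isotype mean, 8.94, was under the filter, so Nectin2 entered the test only through the anti-CD226 libraries. The log2 difference was 1.06 (SE 0.64), and the 95% interval from -0.41 to 2.53 was the widest of the 8 (limma, adjusted p = 0.98). It was 0.55 without isotype replicate 1 and 0.61 without anti-CD226 replicate 1. At equal depth the summed reads differed by a ratio of 2.05, with an exact binomial 95% interval from 1.17 to 3.69. That interval covers counting error only, and the spread between replicates is not in it. Reads of an amplified library are not independent molecules.

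Nectin3, a ligand of TIGIT and a partner of the other nectins in cell adhesion, had 23.2 and 17.0 against 14.4 and 18.7. The log2 difference was -0.26 with an interval from -1.34 to 0.83, and ran from -0.05 without isotype replicate 1 to -0.47 without isotype replicate 2. Cadm1, a nectin-like adhesion molecule and ligand of the receptor CRTAM, had 8.84 and 7.73 against 9.27 and 2.20, from 8, 10, 9 and 2 reads. Its mean was below 10, so it was not tested in the fit. Of the summed level per kilobase of Pvr, Nectin2 and Nectin3, Pvr made up 81.7% and 74.0% in the isotype libraries and 66.4% and 84.3% in the anti-CD226 libraries. Pvr was thus the leading ligand transcript in all 4 libraries.

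The start region of Nectin2 is shown as the ligand with the largest difference, to be set beside the receptors. It is chr7:19749574-19749823 (GRCm38.p6, minus strand), again the 250 bases before the start, with the same motifs in capitals. This window, like that of Nectin3, lies inside the gene's span in the GENCODE annotation given below. That span begins upstream of the RefSeq start used here.
Nectin2: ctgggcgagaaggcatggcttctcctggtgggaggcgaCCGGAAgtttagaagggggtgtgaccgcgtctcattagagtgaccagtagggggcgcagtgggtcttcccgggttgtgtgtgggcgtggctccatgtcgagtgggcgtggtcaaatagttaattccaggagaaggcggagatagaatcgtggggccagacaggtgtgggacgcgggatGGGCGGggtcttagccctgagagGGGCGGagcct

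It held 2 matches to GGGCGG, found in 32.7% of the regions, and 1 to CCGGAA, found in 12%, and its GC content was 62.0%. The Nectin3 region held 5 matches to GGGCGG and had a GC content of 73.2%. The ligand regions held 16 and 30 CG dinucleotides and the Tigit and Cd96 regions 5 and 3, around a median of 6. AGATAA and TGTGGT were not among the letters of either ligand window.

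**Figure D2:**
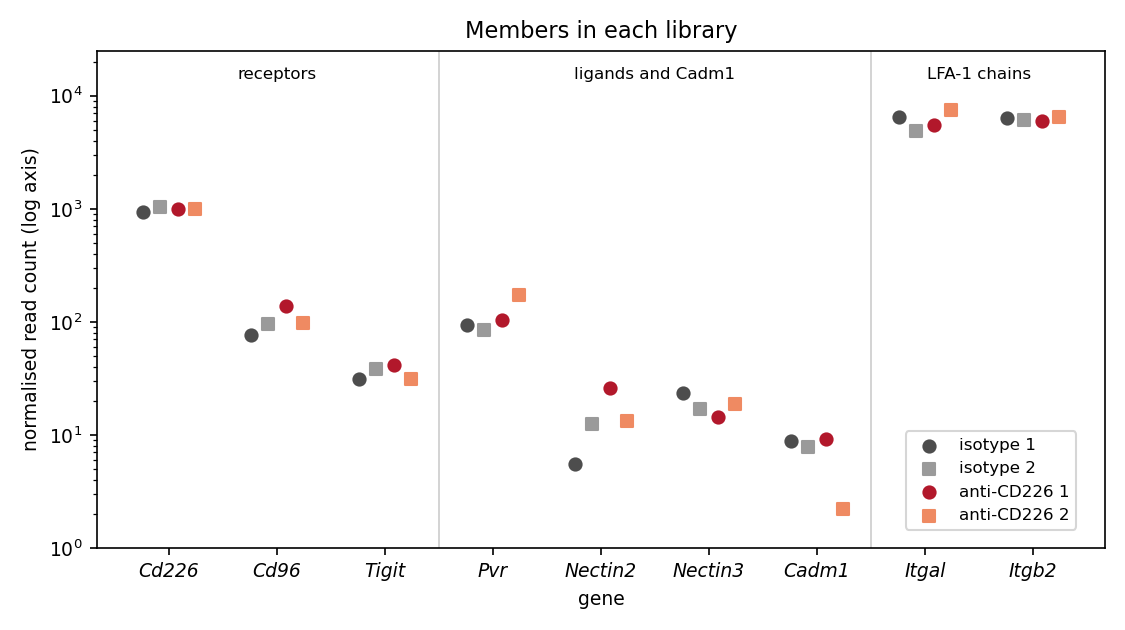
Normalised read counts (log axis) of the 9 genes in isotype replicates 1 and 2 (dark and light grey) and anti-CD226 replicates 1 and 2 (red and orange), grouped into receptors, ligands with Cadm1, and LFA-1 chains. Cd96, Pvr and Nectin2 have both anti-CD226 points above both isotype points, and Cd226 stays between 942 and 1042.

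The LFA-1 chains were abundant in all libraries and differed in how much they varied. Itgb2 had 6400 and 6089 in isotype and 5927 and 6442 in anti-CD226 replicates 1 and 2, and its groups overlapped fully. The log2 difference was -0.01 with a 95% interval from -0.38 to 0.35 (limma, adjusted p = 0.995), and its sign turned when the trend with gene length was removed (0.03). Itgal had 6452 and 4852 against 5546 and 7502. The log2 difference was 0.21 with an interval from -0.29 to 0.70 (limma, adjusted p = 0.98), and it was -0.01 without anti-CD226 replicate 2 and -0.0004 without isotype replicate 2. Itgal's gap between the isotype replicates, 0.41 on the log2 scale, was wider than that of 95.7% of the 371 genes of like level. The ratio of Itgb2 to Itgal per kilobase was 2.13 and 2.701 in the isotype libraries and 2.30 and 1.85 in the anti-CD226 libraries.

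The libraries also differed by gene length. The merged exons of Itgal cover 6569 bases, and its deviations from its own mean were 0.10 and -0.31 in isotype and -0.12 and 0.32 in anti-CD226 replicates 1 and 2 (log2). The 4435 tested genes of 4 to 8 kilobases of exon, Itgal's own class, had median deviations of 0.02, -0.06, -0.02 and 0.09 in that order, the same signs at a smaller size. The 2011 tested genes with 8 kilobases of exon or more had median deviations of 0.00, -0.15, -0.08 and 0.25 in the same order, and the 1074 genes under 1 kilobase 0.05, 0.20, 0.18 and -0.37. Itgb2, with 3052 bases, had the signs of Itgal too, at 0.04, -0.03, -0.07 and 0.05, while the 2 to 4 kilobase class it belongs to had 0.01, 0.05, 0.04 and -0.07. With each library's trend with length removed, the Itgal difference was 0.13 and that of Pvr, with 6122 bases of exon, 0.51. The part of gene length in the remaining spread of Itgal was not tested.

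**Figure D3:**
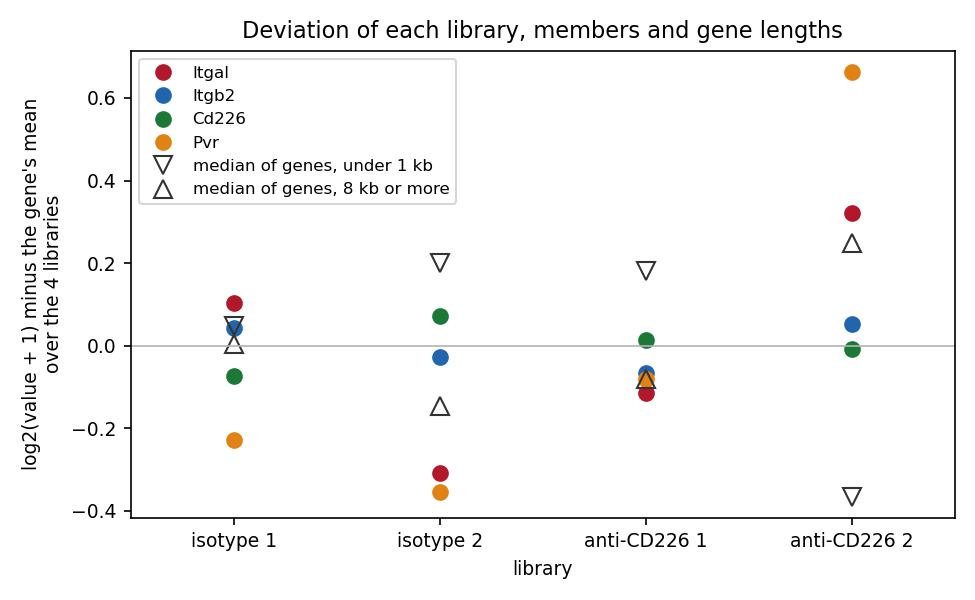
Deviation of log2(value + 1) from the gene's mean over the 4 libraries, for Itgal, Itgb2, Cd226 and Pvr (filled points) and for the median of genes with under 1 kb or with 8 kb or more of exon (open triangles). Itgal and the shorter Itgb2 both have the signs of the long genes in all 4 libraries, and Cd226 deviates by at most 0.07.

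Itgal was by far the leading alpha chain among those that pair with Itgb2. Of the summed level per kilobase of Itgal, Itgam and Itgax, Itgal made up at least 98.8% in each library. Itgam, the alpha chain of Mac-1 on myeloid cells, had 1.11 and 0 in isotype against 19.6 and 18.7 in anti-CD226 libraries. Itgax, the alpha chain CD11c of macrophages and dendritic cells, had 1.11 and 0 against 14.4 and 46.3. Itgam was not tested, its mean being under 10, and Itgax did not pass the test (limma, adjusted p = 0.98). Both were highest in the anti-CD226 libraries, as was the sum of macrophage markers, a sum that itself includes Itgam. Whether the reads of Itgam and Itgax came from ILC2s was not tested. Itgad was not analysed here.

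**Figure D4:**
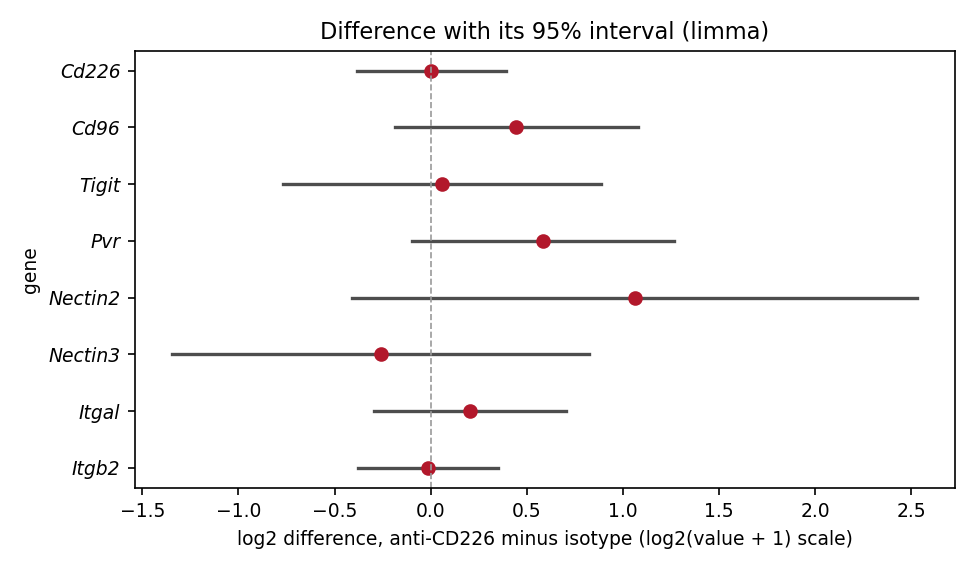
Log2 difference (anti-CD226 minus isotype, log2(value + 1) scale) of the 8 genes tested, with points for the estimates and lines for limma's 95% intervals. Every interval crosses 0, and those of Cd226 and Itgb2 are the narrowest.

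Across the 8 genes tested, 6 were higher and 2 lower in the anti-CD226 libraries, with a median log2 difference of 0.13. Over all 13010 genes tested, 51.1% were higher and the median was 0.0066. No gene of the 8, and 0 of 13010 (0%), had an adjusted p under 0.05 by limma. Unadjusted, 308 genes were under 0.05, none of them among the 8. The groups did not overlap for 3 of the 8, Cd96, Pvr and Nectin2, all higher. Nectin2, with an isotype mean of 8.94, passed the filter only through the anti-CD226 libraries, so its direction was partly set by the filter. Cadm1, lower when no filter was used (log2 difference -0.69), was left out of these counts by the filter. With no filter the members' median was 0.0574. Over all genes 26.8% did not overlap, 13.8% higher and 13.0% lower. The 95% intervals reached a median of 0.66 to either side of the estimate for the members and 0.52 for all genes (log2).

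Genes of the signalling pathway below CD226 and TIGIT were spread to either side. All 26 fixed for this list were tested, 17 higher and 9 lower, with a median log2 difference of 0.08 and 0 past the adjusted threshold. Akt1, a kinase downstream of phosphoinositide 3-kinase that CD226 signalling engages, had the smallest p. Its values were 3291 and 4435 in the isotype pair against 6269 and 5421 in the anti-CD226 pair, without overlap. Its log2 difference was 0.61 with an interval from 0.16 to 1.06 (limma, unadjusted p = 0.015, adjusted p = 0.98). Prkcq, the protein kinase C theta of lymphocyte activation, had 421 and 362 against 496 and 490.5. Cblb, a ubiquitin ligase that restrains lymphocyte activation, had 456 and 429 against 464 and 838. Fyn, a kinase that phosphorylates the CD226 tail, was nearly level, with 1771 and 1714 against 1755 and 1698.

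Genes that activate LFA-1 or serve as its counter-receptors gave a similar picture. Of 24 fixed, 23 were tested, 17 higher and 6 lower, with a median of 0.12 and 0 past the threshold. Rapgef1, an exchange factor for the small GTPase RAP1, which switches integrins to their active state, had 737 and 644 against 1006 and 829. Icam2, a ligand of LFA-1, had 449 and 511 against 427 and 322. Vcl, vinculin of adhesion sites, had 410 and 279 against 389 and 629 and overlapped. Icam1, the main LFA-1 ligand, had 911 and 908 against 897 and 989. Tln1, talin, which binds the beta 2 tail, stood at 13843 and 7835 against 9970 and 19204, the library order of Itgal.

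Of the other nectin and nectin-like genes only Afdn had a value, and the other 7 fixed were not analysed here. Afdn encodes afadin, which ties nectins to actin, and had 50.8 and 47.1 against 35.0 and 38.6 (log2 difference -0.40, interval from -1.13 to 0.32). Of 15 other integrin chains, 11 were tested, 10 higher and 1 lower, with a median of 0.16 and 0 past the threshold. The share higher over all genes was 51.1%. Itgax, with an isotype mean of 0.553, passed the filter of 10 only through the anti-CD226 libraries, which fixed its direction. Itgam and Itgb8 were under the filter, and Itgb8 had 1.11 and 3.09 against 0 and 0. After Itgax, the smallest p in that list belonged to Itgae, the alpha E chain that binds E-cadherin, with 29.8 and 16.2 against 25.7 and 46.3. Itgb5 had 33.2 and 18.5 against 23.7 and 63.9. Both overlapped.

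The genes whose 4 values ran most like those of Cd226 were Morf4l2, Pctp and Lgals9. Likeness was the largest gap, over the 4 libraries, between log2 values centred on each gene's mean, and it was 0.0087, 0.014 and 0.018 for these 3 among 10336 genes with a mean of 50 or more. A gap of 0.1 or less was found for 786 of them (7.60%). Cd226 itself deviated by at most 0.07 from its mean. A gene with almost no variation therefore falls within this gap whatever the order of its values. The share counts genes of little variation over 4 libraries and does not show that they share a pattern with Cd226.

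By the GENCODE M21 annotation on GRCm38, several of the genes share a chromosome. Cd96 (chromosome 16, 46035657 to 46120251) and Nectin3 (46387706 to 46498525) lie 267.5 kilobases apart on the minus strand with 1 protein-coding gene between them, and Tigit (43648867 to 43664146) is 2371.5 kilobases from Cd96 with 33 protein-coding genes between. Nectin2 (chromosome 7, 19716644 to 19750483) and Pvr (19903578 to 19921160) are 153.1 kilobases apart, also on the minus strand, with 6 protein-coding genes between them. Itgal lies on the same chromosome from 127296260 to 127335138, on the plus strand. Itgb2 is on chromosome 10 (77530252 to 77565708), Cadm1 on chromosome 9 (47530173 to 47857637) and Cd226 on chromosome 18 (89176967 to 89272229), all on the plus strand. The span of Pvr also holds the processed pseudogene Gm16184 and the antisense gene Gm16251, that of Nectin2 the antisense gene Gm20512 and that of Cadm1 the unclassified Gm47198 and Gm47197. The treatment of strand is not given, so reads of these could not be told from those of the members.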

How the data were processed

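RNA was measured in 4 libraries, and the authors deposited 1 normalised signal value (a read count scaled between libraries) per gene and library. The submitters' processing notes list Partek 10.0, DESeq2, STAR 2.7.8 and the build mm10. Counting tool, annotation and strand setting were not given in the sources used here. Per the labels' protocols, cDNA was made from 10 pg of RNA, a unit that may be misstated.

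Of the 12769 to 13599 values per library between 0.5 and 1000 steps, between 73.5% and 75.1% were whole multiples of 1 step (tolerance 0.02 of a step), and reads per gene were estimated as the value divided by the step. Because the other values were not whole, no count model was fitted across genes. Exact binomial intervals were computed on the estimated reads of single members, and the one printed is that of Nectin2, whose reads were whole within the tolerance. A value of 3 reads, the limit that a count of 0 allows, was 2.32 to 3.32 normalised counts. This limit and the intervals on read ratios cover counting error only. Only 117 gene columns were checked singly against the unit.

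The 13010 genes with a mean of 10 or more were fitted with limma 3.58.1 in R 4.3.3 (mean-variance trend, log2(value + 1), two-sided, Benjamini-Hochberg over all genes, 2 residual and 5.81 prior degrees of freedom), tested on simulated data. This scale understates changes of low genes. Lengths and positions come from GENCODE M21 (97.3% of genes matched).

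Members and lists were chosen with earlier results of these data known. Named are the members, the 3 genes of smallest p in each wider list, overlapping genes, the other alpha chains of beta 2 integrins, and the 3 genes most like Cd226. Fyn, Icam1 and Tln1, and the markers cited, were named after their values were seen. Alternatives covered pseudocount, filter, scaling, trend, replicate block, length and each library left out.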

Additional observations from a re-analysis of the deposited data

How the results depend on the processing

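Removing the length trend and crossing the replicate pairs were chosen after seeing the data. No gene was called except with a replicate block (20), crossed replicate pairs (61) or a library left out (12 to 1633, highest without anti-CD226 replicate 1). Libraries with the same replicate number deviated in opposite directions (r = -0.24 across 13010 genes), and the numbers share no stated origin. Of the 61 genes of the wider lists tested, 1 was called with crossed pairs and 0 to 12 with a library left out (19.7% without anti-CD226 replicate 1, where 12.6% of all genes were called). The members' median was 0.0574 with no filter, 0.21 with a mean of 50 or more, 0.11 scaled to the same upper quartile, 0.18 with the length trend removed and 0.11 to 0.16 with a library left out. Cadm1 entered with no filter (log2 difference -0.69, limma adjusted p = 0.985), and the filter of 50 leaves out Tigit, Nectin2 and Nectin3.

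Cd226 turned sign under scaling to the same total (-0.0033), scaling to the same upper quartile (-0.0196), quantile normalization (-0.0192) and length removal (-0.0365), and ran from -0.0687 to 0.0767 with a library left out. Tigit ran from -0.15 to 0.26, Itgal from -0.0127 to 0.42, Itgb2 from -0.0748 to 0.0454 and Pvr from 0.21 to 0.95 in those fits. Cd226 and Tigit were lower, and Itgb2 higher, without isotype replicate 1 or anti-CD226 replicate 1, and Itgal was lower without either replicate 2. Itgb2 was 0.0273 with length removed. The cause of these changes was not tested. With a library left out, Cd96 ran from 0.20 to 0.69, Nectin2 from 0.55 to 1.58 and Nectin3 from -0.0453 to -0.47. These 3 and Pvr kept their direction in every alternative run. For Cd96, Pvr and Nectin2 the groups do not overlap, so leaving out 1 library could not turn the sign. The fits without a trend or with replicate pairs return the main estimate by design. Pvr without anti-CD226 replicate 1 was the only call among the members. In the order per kilobase, 2 genes changed place with the longest transcript and 5 without division by length. Depth limits Tigit, Nectin2, Nectin3 and Cadm1, at 2 to 49 reads per library.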
